A study of Mus musculus with 12 samples.

Results

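Elastic fibres let the lung stretch and recoil, and in mice most of them are laid down while the alveoli are being divided by new septa after birth. Tropoelastin, the product of *Eln*, is deposited on a scaffold of fibrillin microfibrils, brought there with the help of fibulin-5 and fibulin-4, and then cross-linked by lysyl oxidases into an insoluble polymer. Because the polymer turns over very slowly, RNA levels do not give the amount of fibre present. They describe transcripts at the time of sampling, and neither protein nor fibre assembly was measured here.

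The 10 genes described here are those of the deposited gene count table that encode the core of this system: *Eln*, the fibrillins *Fbn1* and *Fbn2*, the microfibril-associated genes *Mfap4* and *Mfap5*, the fibulins *Fbln5* and *Efemp2*, the fibre glycoprotein *Emilin1*, and the cross-linking enzymes *Lox* and *Loxl1*. They were picked by name, 10 out of 52550 rows, and all 10 were measured deeply enough to be tested, with at least 250 counts in every library (the lowest, for *Mfap5*). Bulk RNA sequencing was performed on whole lungs of 12 C57Bl/6J mice on postnatal day 5, with 1 library per mouse and 3 mice per group. The mice were either WT (Adm+/+) or Adm+/-, with the adrenomedullin gene disrupted on the other allele in all of their cells, and received intraperitoneal *Escherichia coli* O55:B5 lipopolysaccharide (LPS, an endotoxin that provokes inflammation) at 6 mg/kg or phosphate-buffered saline (PBS). All groups were injected on 3 consecutive days from postnatal day 3 and sampled 6 h after the last injection. Mice that lack both alleles die as embryos, so Adm+/- mice model a partial loss, and LPS exposure serves in the study as a model of bronchopulmonary dysplasia, the chronic lung disease of preterm infants.

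Replicate numbers are the library numbers of the labels: 3, 4 and 5 for WT PBS, 9, 10 and 11 for WT LPS, 6, 7 and 8 for Adm+/- PBS, and 1, 2 and 12 for Adm+/- LPS. Total counts per library ran from 22382535 to 38062873. *Adm* itself was low everywhere, at 3.96 to 8.15 CPM in the WT and 2.87 to 6.28 CPM in the Adm+/- libraries, and its ranges overlapped between genotypes. Epithelial markers summed to between 12347 and 16036 CPM in every library. *Sftpc* made up 66.3% of that sum, and without it the sum ran from 4206 to 5361 CPM. WT PBS replicate 5 and Adm+/- PBS replicate 6 stood apart before any comparison was made. Protein-coding genes held 77.8% and 80.1% of their counts, against 84.3% to 87.6% in the other 10 libraries. A single gene outside that class, *Gm26917*, held 16.6% and 13.3% of their counts, against 5.42% to 7.4% in the other 10.

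Levels are given as CPM (counts scaled to a common library size) after scaling by edgeR's TMM factors, and comparisons between genes as CPM per kilobase of exon. On the per-kilobase scale *Eln* ranked 9 and *Mfap4* 10 among the 15885 tested protein-coding genes, with means over the 12 libraries of 765 and 725 CPM per kb. Together these genes made up 40.4% and 38.3% of the summed per-kilobase level of the 10 genes. Their order rested on WT PBS replicate 5: over the other 11 libraries the means were 694 for *Eln* and 734 CPM per kb for *Mfap4*, at ranks 11 and 9. It also differed between groups, from 946 ± 524 and 748 ± 120.2 CPM per kb (SD, n = 3) in WT PBS to 653 ± 136 and 817 ± 84 CPM per kb (SD, n = 3) in Adm+/- PBS. *Fbn1* followed at rank 214 (117 CPM per kb), then *Loxl1* at 294 (89.2), *Emilin1* at 562 (58.9), *Fbln5* at 617 (55.1) and *Lox* at 970 (39.7). *Efemp2* with 19.9, *Fbn2* with 16 and *Mfap5* with 5.64 CPM per kb came last, at ranks 2468, 3271 and 8025. Without WT PBS replicate 5 *Emilin1* and *Fbln5* changed places, at 53.9 and 55 CPM per kb. The 10 genes together took between 0.849% and 1.64% of all protein-coding counts, and the highest share belonged to WT PBS replicate 5.

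**Figure D1:**
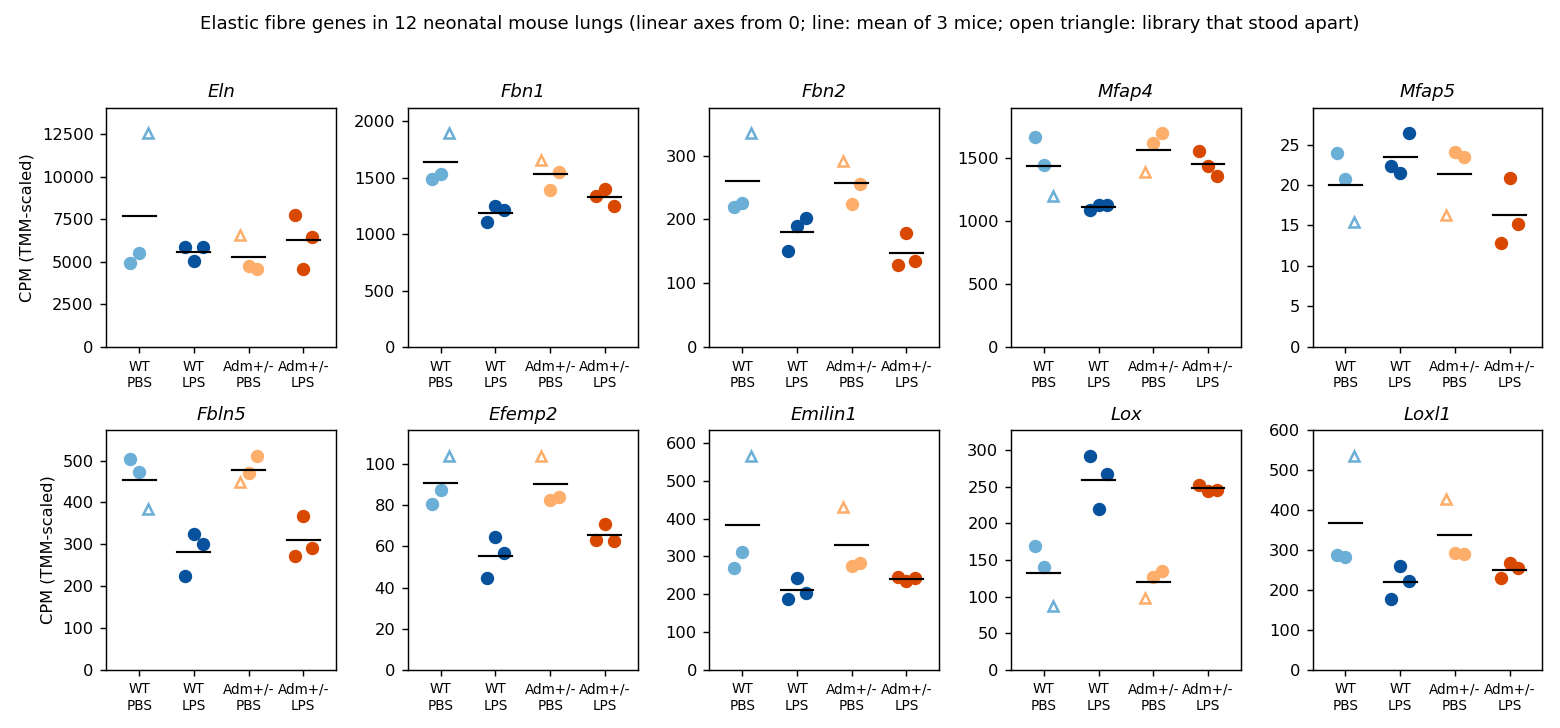
TMM-scaled CPM (y axes, linear and starting at 0) of each gene in each library, by group (x axes). Each symbol is 1 mouse, bars are the means of 3 mice, and open triangles mark WT PBS replicate 5 and Adm+/- PBS replicate 6. *Lox* lay higher in all 6 LPS libraries than in all 6 PBS libraries. *Fbn2*, *Fbln5*, *Efemp2*, *Emilin1* and *Loxl1* lay lower in all 6, and the *Eln* mean of WT PBS was set by a single library at 12551 CPM.

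After LPS, *Lox* was higher and *Fbln5* lower in both genotypes, *Efemp2* and *Emilin1* were lower past the threshold in WT mice, and *Fbn2* was lower past the threshold in Adm+/- mice. A gene was called at a Benjamini-Hochberg adjusted p below 0.05, over all 15885 genes, together with an absolute log2 fold change above 0.5 in edgeR's quasi-likelihood test. In WT mice 4 of the 10 genes were called, 1 higher and 3 lower, where 17.6% of all tested genes were called, 10.5% higher and 7.09% lower. In Adm+/- mice 3 of the 10 were called, 1 higher and 2 lower, against a background of 25.0% of all genes, 12.8% higher and 12.2% lower. The median log2 fold change of the 10 genes was −0.49 in WT and −0.41 in Adm+/- mice, beside 0.01 and −0.01 over all tested genes. In each genotype 8 of the 10 had a negative value, beside 49.1% of all genes in WT and 51.3% in Adm+/- mice. The WT count was 7 without WT PBS replicate 5, and also without both PBS libraries that stood apart. Without both PBS libraries that stood apart the medians were −0.36 and −0.22, and with an offset for GC content in each library, added after the values had been seen, −0.40 and −0.16. When the fold limit itself was tested (glmTreat), 0 WT calls and 1 Adm+/- call, *Lox*, remained. Over all genes the calls fell from 2791 to 1001 in WT and from 3968 to 1695 in Adm+/- mice. With only the 6 WT libraries in the fit 0 WT calls remained, and 1152 over all genes. *Eln* and *Mfap5* were the members whose fitted sign differed between the genotypes, and neither was called in either of them. In whole lung, fewer cells of a type and less RNA per cell cannot be told apart.

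**Figure D2:**
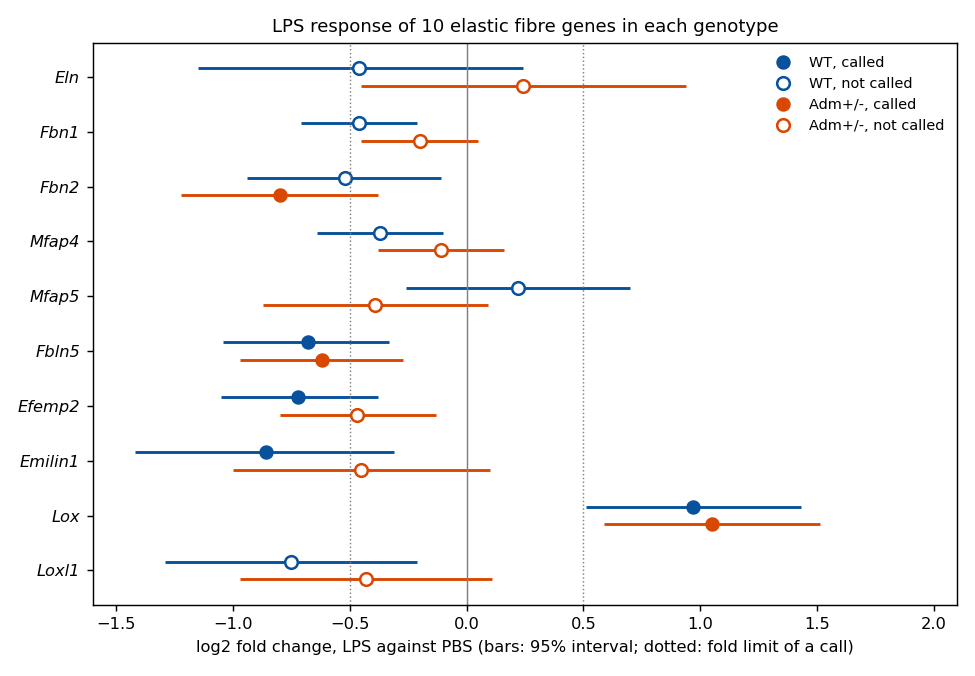
Fitted log2 fold change of LPS against PBS (x axis) for the 10 genes (y axis), WT in blue and Adm+/- in orange. Bars are 95% intervals, filled points were called and open points were not, and dotted lines mark the fold limit of 0.5 used for a call. *Lox* is the only member to the right of the limit, at 0.97 and 1.05.

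*Eln* (ENSMUSG00000029675), the gene of tropoelastin, lies on the minus strand of chromosome 5 of mm10, from 134702593 to 134747323. It was at 4935, 5497 and 12551 CPM in the WT PBS libraries, in the order of the replicate numbers given above, and at 5849, 5031 and 5885 CPM in WT LPS. In Adm+/- mice *Eln* stood at 6554, 4739 and 4564 CPM after PBS and at 7751, 4577 and 6434 CPM after LPS. The treatments overlapped in both genotypes, and the highest value of all belonged to WT PBS replicate 5. The log2 fold change of *Eln* was −0.46 in WT mice (95% interval −1.15 to 0.24, adjusted p = 0.321 from edgeR) and 0.24 in Adm+/- mice (95% interval −0.45 to 0.94, adjusted p = 0.601 from edgeR). Without WT PBS replicate 5 the WT value turned to 0.10 (adjusted p = 0.79 from edgeR), so the fitted fall rested on that library.

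The fibrillins are very large glycoproteins that polymerize end to end into microfibrils, and they also hold latent TGF-beta complexes in the matrix. *Fbn1* (ENSMUSG00000027204, chromosome 2, 125300594 to 125507993, minus strand), the fibrillin that persists into adult life, was at 1488, 1532 and 1895 CPM in WT PBS and at 1109.7, 1247 and 1214 CPM in WT LPS. The Adm+/- libraries held 1653, 1389 and 1547 CPM of *Fbn1* after PBS and 1338, 1398 and 1248 CPM after LPS. All WT LPS libraries lay below all WT PBS libraries, while the Adm+/- treatments overlapped slightly. Its log2 fold change of −0.46 in WT mice (SE 0.11, adjusted p = 0.016 from edgeR) passed the p threshold and fell short of the fold limit. The Adm+/- value was −0.20 (SE 0.11, adjusted p = 0.198 from edgeR). Without WT PBS replicate 3 or replicate 4 the WT value was −0.53 or −0.51, past both limits. It was −0.35 without WT PBS replicate 5, and without WT LPS replicate 9 it missed the p threshold (−0.42, adjusted p = 0.0765 from edgeR).

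*Fbn2* (ENSMUSG00000024598, chromosome 18, 58008623 to 58210487, minus strand) encodes the fibrillin that is most abundant before birth. Its levels were 219, 226 and 335 CPM in WT PBS and 151, 189.5 and 202 CPM in WT LPS. After PBS the Adm+/- libraries had 291, 224 and 255 CPM of *Fbn2*, and after LPS 128, 178 and 134 CPM. In neither genotype did an LPS library reach the lowest PBS library. *Fbn2* fell in Adm+/- mice by 0.80 on the log2 scale (SE 0.19, adjusted p = 0.0086 from edgeR), and this call was kept in each of the 12 fits that left out 1 library, with adjusted p from 0.00185 to 0.042. The WT value was −0.52 (SE 0.19, adjusted p = 0.0707 from edgeR) and was called without WT PBS replicate 3 (adjusted p = 0.0483 from edgeR) and by DESeq2 (adjusted p = 0.0457). Without WT PBS replicate 5 it was −0.30.

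The balance of the fibrillins can be read within a library, per kilobase. *Fbn2* made up 11.9%, 11.9% and 14% of the summed fibrillin level in WT PBS and 11.1%, 12.2% and 13.2% in WT LPS. In Adm+/- mice its share was 13.9%, 12.9% and 13.1% after PBS and 8.09%, 10.5% and 8.97% after LPS. The *Fbn2* share was thus lower in the 3 Adm+/- LPS libraries (9.19% ± 1.22, SD, n = 3) than in any of the other 9, whose lowest value was 11.1%. This share was formed after the values of both genes had been seen and is given as a description, with no test. The fitted difference between genotypes in the LPS response of *Fbn2* was −0.28 (95% interval −0.87 to 0.31, adjusted p = 0.962 from edgeR).

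**Figure D3:**
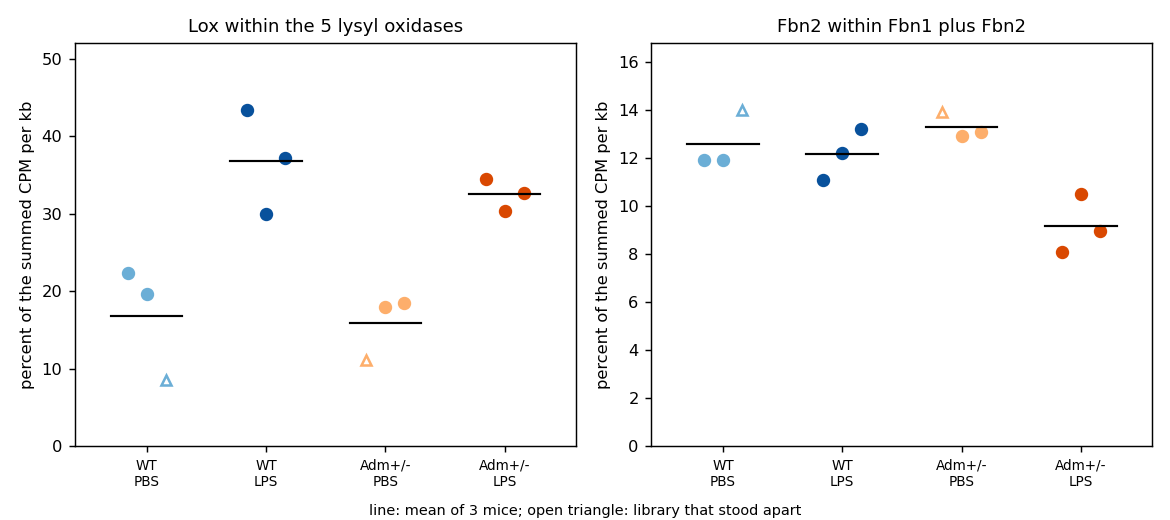
Share of *Lox* in the summed CPM per kb of *Lox*, *Loxl1*, *Loxl2*, *Loxl3* and *Loxl4* (left) and share of *Fbn2* in that of *Fbn1* and *Fbn2* (right), in percent, for each library by group. Bars are the means of 3 mice and open triangles the PBS libraries that stood apart. The *Lox* share was at least 30% in every LPS library and at most 22.4% in every PBS library, and the *Fbn2* share was lowest in Adm+/- LPS.

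Microfibril-associated proteins bind fibrillin and tropoelastin at the fibre surface. *Mfap4* (ENSMUSG00000042436, chromosome 11, 61485431 to 61488900, plus strand) was at 1666, 1444 and 1204 CPM in WT PBS and at 1087, 1129 and 1129 CPM in WT LPS. Its Adm+/- levels were 1389, 1621 and 1699.9 CPM after PBS and 1561, 1441 and 1359 CPM after LPS. The WT LPS libraries were the 3 lowest of the 12, whereas the Adm+/- treatments overlapped. The log2 fold change of *Mfap4* was −0.37 in WT mice (95% interval −0.64 to −0.10, adjusted p = 0.055 from edgeR) and −0.11 in Adm+/- mice (95% interval −0.38 to 0.16, adjusted p = 0.533 from edgeR). With both PBS libraries that stood apart left out, the WT value was −0.48 (adjusted p = 0.00643 from edgeR), still short of the fold limit, and without WT PBS replicate 3 it was −0.25 (adjusted p = 0.145 from edgeR).

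*Mfap5* (ENSMUSG00000030116, chromosome 6, 122505845 to 122529290, plus strand) was by far the least abundant of the 10. WT PBS libraries held 23.9, 20.7 and 15.4 CPM and WT LPS libraries 22.3, 21.5 and 26.4 CPM of it. Among Adm+/- libraries the *Mfap5* level was 16.3, 24.1 and 23.5 CPM after PBS and 12.9, 20.9 and 15.2 CPM after LPS. Treatments overlapped in both genotypes, with log2 fold changes of 0.22 (95% interval −0.26 to 0.70, adjusted p = 0.484 from edgeR) in WT and −0.39 (95% interval −0.87 to 0.09, adjusted p = 0.204 from edgeR) in Adm+/- mice. Leaving out both PBS libraries that stood apart gave an Adm+/- value of −0.54, which was called (adjusted p = 0.0449 from edgeR), whereas without Adm+/- LPS replicate 1 it was −0.24 (adjusted p = 0.503 from edgeR).

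The fibulins bridge tropoelastin and the enzymes that cross-link it. *Fbln5* encodes fibulin-5, which binds tropoelastin and cell-surface integrins and which mice need for normal elastic fibres in the lung. *Efemp2* encodes fibulin-4, which is needed to bring lysyl oxidase to tropoelastin. These genes are shown with the 250 bases upstream of an annotated RefSeq start (GRCm38.p6; of 2 and 3 starts on record, the one nearest the Gencode gene start), as the fibulins among the 3 genes called lower in WT mice. *Emilin1*, the third of these, also has a RefSeq window, which is searched with the others but not printed because it lies inside the Gencode gene and may hold transcribed sequence. *Fbln5* is shown from chr12:101819120-101819369 (minus strand) and *Efemp2* from chr19:5473696-5473945 (plus strand), each 5′ to 3′ on the gene's strand. Capitals mark the GC box GGGCGG or its reverse complement, a motif known to bind factors of the Sp family.
Fbln5: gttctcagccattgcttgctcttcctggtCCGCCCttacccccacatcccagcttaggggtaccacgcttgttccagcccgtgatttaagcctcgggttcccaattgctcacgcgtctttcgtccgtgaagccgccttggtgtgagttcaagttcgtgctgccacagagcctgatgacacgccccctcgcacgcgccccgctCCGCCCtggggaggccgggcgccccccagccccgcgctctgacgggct
Efemp2: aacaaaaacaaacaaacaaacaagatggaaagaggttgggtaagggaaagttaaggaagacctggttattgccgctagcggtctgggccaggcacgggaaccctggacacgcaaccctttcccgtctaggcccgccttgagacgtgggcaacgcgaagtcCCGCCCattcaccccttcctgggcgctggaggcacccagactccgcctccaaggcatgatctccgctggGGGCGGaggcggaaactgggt
Each of these windows held 2 GC boxes, and the window of *Fbn1* held 1 and that of *Emilin1* 0. The RefSeq starts lay 64 bases from the Gencode gene start for *Fbln5*, 8 for *Efemp2*, 1555 for *Fbn1* and 384 for *Emilin1*, in the last 2 inside the Gencode gene. The 3 genes called lower in WT mice thus did not share the GC box in these windows. A GC box on either strand was present in 32.7% of all 32851 promoter windows of the same length. The Smad-binding core CAGAC, searched on both strands, occurred 2 times in the *Efemp2* window, 2 times in that of *Emilin1* and 0 times in those of *Fbln5* and *Fbn1*, beside 42.2% of all windows with at least 1. Neither the AP-1 site TGANTCA (6.7% of all windows) nor the TATA box TATAAA (12.4%) was found in any of these 4 windows on either strand. The windows of the other 6 genes were not analysed here.

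*Fbln5* (ENSMUSG00000021186, chromosome 12, 101746565 to 101819055, minus strand) was at 503, 472 and 385 CPM in WT PBS and at 224, 324 and 299.8 CPM in WT LPS. Adm+/- libraries held 448, 471 and 511 CPM of it after PBS and 271, 368 and 292 CPM after LPS. Every LPS library lay below every PBS library, also across the genotypes. The same held for *Fbn2*, *Efemp2*, *Loxl1* and *Emilin1*, and the share of all tested genes that separate in this way was not determined. The log2 fold change of *Fbln5* was −0.68 in WT (SE 0.16, adjusted p = 0.0125 from edgeR) and −0.62 in Adm+/- lungs (SE 0.16, adjusted p = 0.0132 from edgeR), so that LPS lungs held 0.623 and 0.651 of the PBS level. The WT call was lost without WT LPS replicate 9 (−0.55, adjusted p = 0.054 from edgeR). The Adm+/- call was lost without Adm+/- LPS replicate 1 (−0.53, adjusted p = 0.06 from edgeR) or replicate 12 (−0.58, adjusted p = 0.0552 from edgeR).

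*Efemp2* (ENSMUSG00000024909, chromosome 19, 5473954 to 5482517, plus strand) stood at 80.7, 87.4 and 104 CPM in WT PBS and at 44.5, 64.6 and 56.6 CPM in WT LPS. After PBS its Adm+/- levels were 104, 82.6 and 84 CPM, and after LPS 62.9, 70.9 and 62.5 CPM. Here too all 6 LPS libraries lay below all 6 PBS libraries. *Efemp2* fell by 0.72 in WT mice (SE 0.15, adjusted p = 0.00763 from edgeR), a call kept in all 12 fits that left out 1 library and lost in the fit of the 6 WT libraries alone (adjusted p = 0.0501 from edgeR). The Adm+/- value of −0.47 (SE 0.15, adjusted p = 0.0371 from edgeR) passed the p threshold but not the fold limit, and it was called without Adm+/- PBS replicate 7 (−0.53, adjusted p = 0.0478 from edgeR) but missed the p threshold without Adm+/- PBS replicate 6 (−0.36, adjusted p = 0.132 from edgeR). *Efemp2* overlaps *Mus81* on the opposite strand, and the strand option of the counting is not given in the sources used here.

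*Emilin1* (ENSMUSG00000029163, chromosome 5, 30913402 to 30921277, plus strand) encodes a glycoprotein at the interface of elastin and microfibrils that restrains TGF-beta processing. It was at 270.1, 313 and 566 CPM in WT PBS and at 187, 242 and 204 CPM in WT LPS. The Adm+/- values of *Emilin1* were 429.9, 275 and 283 CPM after PBS and 246, 235 and 242 CPM after LPS, so that in each genotype the LPS libraries lay below the PBS libraries. On the log2 scale *Emilin1* fell by 0.86 in WT mice (SE 0.25, adjusted p = 0.0333 from edgeR) and had a value of −0.45 in Adm+/- mice (95% interval −1 to 0.10, adjusted p = 0.198 from edgeR), which was −0.22 without Adm+/- PBS replicate 6 and −0.16 with an offset for GC content. Its WT call was lost without WT PBS replicate 5 (−0.47, adjusted p = 0.0877 from edgeR), WT LPS replicate 9 (adjusted p = 0.13 from edgeR) or WT LPS replicate 11 (adjusted p = 0.0803 from edgeR).

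Lysyl oxidases are copper-dependent enzymes that oxidize lysines of tropoelastin and collagens so that they cross-link. *Lox* (ENSMUSG00000024529, chromosome 18, 52516067 to 52529867, minus strand) encodes the founding member, which acts on both fibre types. *Lox* was at 169, 141 and 86.9 CPM in WT PBS and at 292, 219.9 and 267 CPM in WT LPS. The Adm+/- libraries held 97.5, 127 and 135 CPM of *Lox* after PBS and 253, 244 and 246 CPM after LPS. All 6 LPS libraries lay above all 6 PBS libraries. *Lox* rose 1.96-fold in WT mice (log2 fold change 0.97, SE 0.21, adjusted p = 0.0081 from edgeR) and 2.06-fold in Adm+/- mice (log2 fold change 1.05, SE 0.21, adjusted p = 0.00336 from edgeR). Both calls were kept in the 12 fits that left out 1 library, in which the rise ranged from 0.74 to 1.19 in WT and from 0.91 to 1.14 in Adm+/- mice. The WT call was lost in the fit of the 6 WT libraries alone (adjusted p = 0.0583 from edgeR).

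*Loxl1* (ENSMUSG00000032334, chromosome 9, 58287738 to 58313186, minus strand), a paralog that binds tropoelastin and fibulin-5 and acts on elastic fibres, did not move with *Lox*. Its levels were 288, 283 and 536 CPM in WT PBS and 177, 259 and 223 CPM in WT LPS. In Adm+/- lungs *Loxl1* was at 428, 293 and 291 CPM after PBS and at 229, 267 and 254 CPM after LPS. The LPS libraries of each genotype lay below its PBS libraries, with a log2 fold change of −0.75 in WT mice (95% interval −1.29 to −0.21, adjusted p = 0.051 from edgeR) and of −0.43 in Adm+/- mice (95% interval −0.97 to 0.11, adjusted p = 0.207 from edgeR). The WT value was called without WT PBS replicate 3, WT PBS replicate 4 or Adm+/- PBS replicate 6 (adjusted p = 0.0344, 0.034 and 0.0401 from edgeR) and by DESeq2 (adjusted p = 0.0203). Without WT PBS replicate 5 it was −0.38, and the Adm+/- value was −0.23 without Adm+/- PBS replicate 6 and −0.14 with GC offsets.

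Counted per kilobase over the 5 lysyl oxidase genes *Lox*, *Loxl1*, *Loxl2*, *Loxl3* and *Loxl4*, the *Lox* share was 22.4%, 19.6% and 8.5% in WT PBS and 43.4%, 30% and 37.2% in WT LPS. It was 11.1%, 18% and 18.5% in Adm+/- PBS and 34.5%, 30.3% and 32.7% in Adm+/- LPS. The means were 16.8% ± 7.35 and 36.9% ± 6.71 (SD, n = 3) in WT mice, and 15.9% ± 4.14 and 32.5% ± 2.11 (SD, n = 3) in Adm+/- mice. As with the fibrillins, this share was formed after the values had been seen and carries no test. The lowest shares in PBS were those of the libraries that stood apart, WT PBS replicate 5 and Adm+/- PBS replicate 6.

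In those PBS libraries the 10 genes deviated in part along the GC content of their transcripts. Against the mean log2 CPM of the other WT PBS mice, WT PBS replicate 5 was higher by 1.27 for *Eln* (58.8% GC), 0.96 for *Emilin1* (61.1%) and 0.91 for *Loxl1* (61%), and its difference was −0.82 for *Lox* (43.9%) and −0.34 for *Fbln5* (46.9%). Adm+/- PBS replicate 6 deviated with the same signs for all 10 genes and by less for most, with 0.62 for *Emilin1*, 0.49 for *Eln* and −0.43 for *Lox*. Over the 10 genes Spearman's rho between GC content and the deviation was 0.81 for WT PBS replicate 5 and 0.88 for Adm+/- PBS replicate 6, and over the 15875 tested genes with a GC content it was 0.65 and 0.56. These are descriptions across genes of single libraries. With an offset for GC content fitted to each library, an alternative added after the values had been seen, the WT calls were the same 4 genes, with −0.71 for *Fbln5*, −0.61 for *Efemp2*, −0.51 for *Emilin1* and 0.89 for *Lox*. In the same fit *Eln* was at −0.15 in WT and 0.45 in Adm+/- mice, and it was not called in either (adjusted p = 0.631 and 0.115 from edgeR). Leaving both libraries out gave 3 WT calls, *Fbln5*, *Efemp2* and *Lox*, at −0.79, −0.61 and 0.74.

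**Figure D4:**
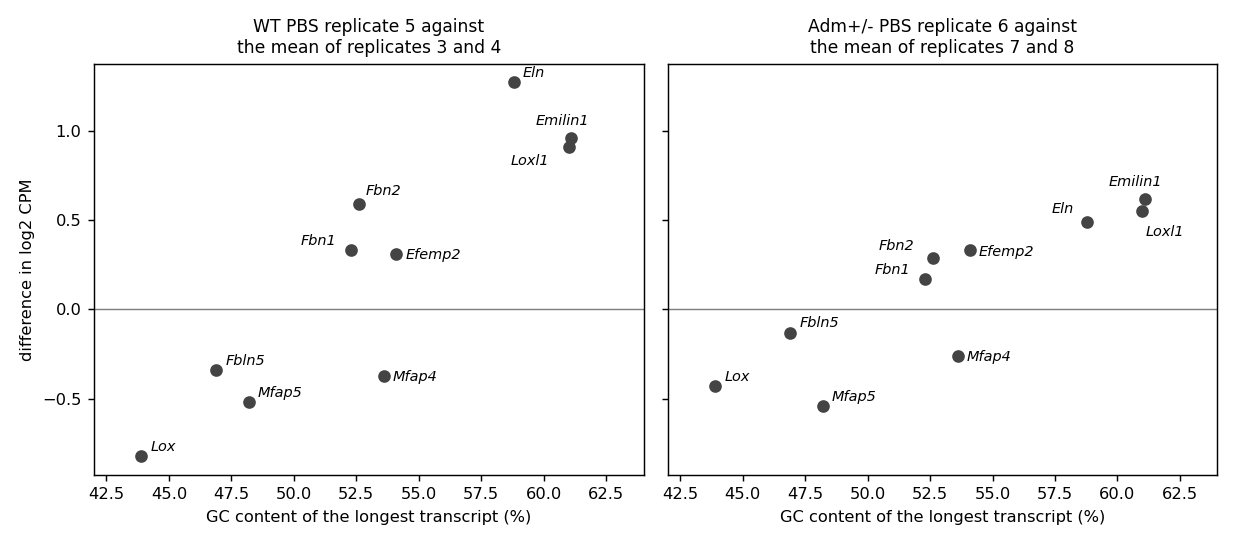
Difference in log2 CPM between the library that stood apart and the mean of the other PBS libraries of its genotype (y axis), against the GC content of the longest transcript in percent (x axis), for WT PBS replicate 5 (left) and Adm+/- PBS replicate 6 (right). Each point is 1 gene. *Lox*, with the lowest GC content, lies at −0.82 and −0.43, and *Emilin1*, with the highest, at 0.96 and 0.62.

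The LPS responses of the 10 genes were compared directly between the genotypes. None of the 10 was called for a difference between Adm+/- and WT mice by edgeR, DESeq2 or limma-voom, where 0.145% of all tested genes, or 23 genes, were called by edgeR. In edgeR 0 of the 10 had an unadjusted p under 0.05, beside 7.85% of all genes. The largest fitted differences, Adm+/- minus WT, were 0.70 for *Eln* (95% interval −0.29 to 1.68, adjusted p = 0.834 from edgeR) and −0.61 for *Mfap5* (95% interval −1.28 to 0.07, adjusted p = 0.701 from edgeR). The value of *Eln* was 0.15 without WT PBS replicate 5. *Lox* and *Fbln5*, called in both genotypes, had differences of 0.07 (95% interval −0.57 to 0.72) and 0.06 (95% interval −0.43 to 0.56). These intervals still allow responses that differ by about the fold limit of 0.5 or more.

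Between genotypes given the same treatment, 0 of the 10 genes were called by edgeR, DESeq2 or limma-voom. Of all tested genes 0% were called after PBS and 2.05% after LPS. An unadjusted p under 0.05 was found for 0 of the 10 after PBS, beside 2.17% of all genes, and for 2 of the 10 after LPS, beside 14.3% of all genes, a share that 2 of 10 does not set apart. *Mfap4* was higher in Adm+/- LPS than in WT LPS mice without overlap, by 0.38 (95% interval 0.11 to 0.65, adjusted p = 0.151 from edgeR), and its adjusted p ranged from 0.0531 to 0.398 when 1 library was left out. Without both PBS libraries that stood apart the adjusted p was 0.0295 from edgeR, with the value of 0.39 still short of the fold limit, and the other alternatives reached an adjusted p of up to 1. *Mfap5* was lower without overlap, at −0.52 (95% interval −1 to −0.04, adjusted p = 0.3 from edgeR). After PBS the widest fitted gap was that of *Eln*, −0.54 (95% interval −1.23 to 0.16, adjusted p = 0.999 from edgeR), which was 0.02 without WT PBS replicate 5.

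The proteins around the 10 genes were read from lists written from general knowledge. Of 25 other microfibril and elastic fibre proteins, 4 were called higher and 5 lower in WT mice, and 3 higher and 4 lower in Adm+/- mice, with medians of −0.22 and −0.10. The called share of this list in Adm+/- mice, 7 of 25, was near the 25.0% of all genes called there, and that in WT mice, 9 of 25, stood beside 17.6%. *Mfap2*, the close relative of *Mfap5*, fell in both genotypes, by 0.55 and 0.57 (adjusted p = 0.0073 and 0.00368 from edgeR). Also lower in both were *Ltbp3*, a latent TGF-beta binding protein, at −0.83 and −0.68, and the fibulin gene *Fbln7*, at −1.36 and −1.23. Higher in both were *Emilin2*, by 1.59 and 1.56, and *Adamtsl2*, by 1.13 and 2.46. *Ltbp4*, whose product works with fibulin-5 in elastin assembly, had values of −0.46 and −0.29 and was not called (adjusted p = 0.127 and 0.304 from edgeR). None of the other fibulins read by name, *Fbln1*, *Fbln2* and *Efemp1*, was called in either genotype, and their values lay between −0.71 and 0.19.

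Within the lysyl oxidase family, *Loxl2* was not called (−0.16 in WT and 0.03 in Adm+/- mice), *Loxl3* fell in WT mice by 0.82 (adjusted p = 0.0197 from edgeR), and *Loxl4* rose in Adm+/- mice by 1.13 (adjusted p = 0.000709 from edgeR). *Loxl4* was scarce, at 5.17 ± 0.322 CPM in Adm+/- PBS and 11.3 ± 1.75 CPM (SD, n = 3) in Adm+/- LPS. Its difference between genotypes was 0.70 (adjusted p = 0.467 from edgeR), and that of *Loxl3* was 0.33 (adjusted p = 0.95 from edgeR). On the list of these enzymes with their activating proteases and the copper pump, 1 of 6 was called lower in WT mice and 2 of 6 higher in Adm+/- mice. Of 9 integrin and elastin receptor genes 0 were called in WT mice, and 1 was called higher and 2 lower in Adm+/- mice, beside 17.6% and 25.0% of all genes.

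Of 9 tested proteases that can cut elastin or microfibrils, 6 were called higher after LPS and 0 lower in each genotype, beside 10.5% and 12.8% of all genes called higher. The other 3, named after their values were seen, were among the more abundant. *Mmp2* was lower without overlap at −0.40 and −0.34 (adjusted p = 0.0177 and 0.0265 from edgeR) and *Ctsl* higher at 0.34 and 0.38, both short of the fold limit, and *Mmp14* was at −0.19 and 0.15. *Mmp9*, the gelatinase of neutrophils and macrophages, rose by 4.11 in WT and 3.92 in Adm+/- mice, and *Mmp12*, the macrophage elastase, by 3.26 and 4.45 from 0.51 and 0.533 CPM, with overlapping treatments in WT mice. The cathepsin genes *Ctss* and *Ctsk* rose by 1.02 and 1.15 in WT and by 0.60 and 0.87 in Adm+/- mice. The neutrophil protease genes *Prtn3* and *Ctsg* were also called, at means of at most 2.96 CPM in any group, and *Elane*, neutrophil elastase, was below the filter with at most 30 counts in any library. Of 7 inhibitor genes 4 were called higher and 0 lower in each genotype. *Slpi*, which inhibits neutrophil elastase, rose by 2.47 and 2.89, *Timp1* by 2.18 and 3.39, *Timp3* by 1.01 and 1.34, and *Serpinb1a* by 1.47 and 0.93. *Timp2*, named after its values were seen, was the only inhibitor gene with negative values. It was lower without overlap at −0.34 and −0.33 (adjusted p = 0.0255 and 0.0226 from edgeR), short of the fold limit. Among 12 genes that signal to elastin-making myofibroblasts, *Tgfb2*, *Tgfb3*, *Fgf18* and *Wnt5a* fell in both genotypes, by 0.98, 1.13, 0.76 and 0.95 in WT and by 1.35, 1.43, 0.95 and 1.23 in Adm+/- mice. These 4 of 12 stood beside 7.09% and 12.2% of all genes called lower. In Adm+/- mice 2 of the 12 were called higher, beside 12.8% of all genes, and named after their values were seen they were *Tgfb1* at 0.53 and the receptor gene *Tgfbr2* at 0.82, with 0.13 and 0.31 in WT mice. None of the genes on these lists was called for a difference between genotypes.

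**Figure D5:**
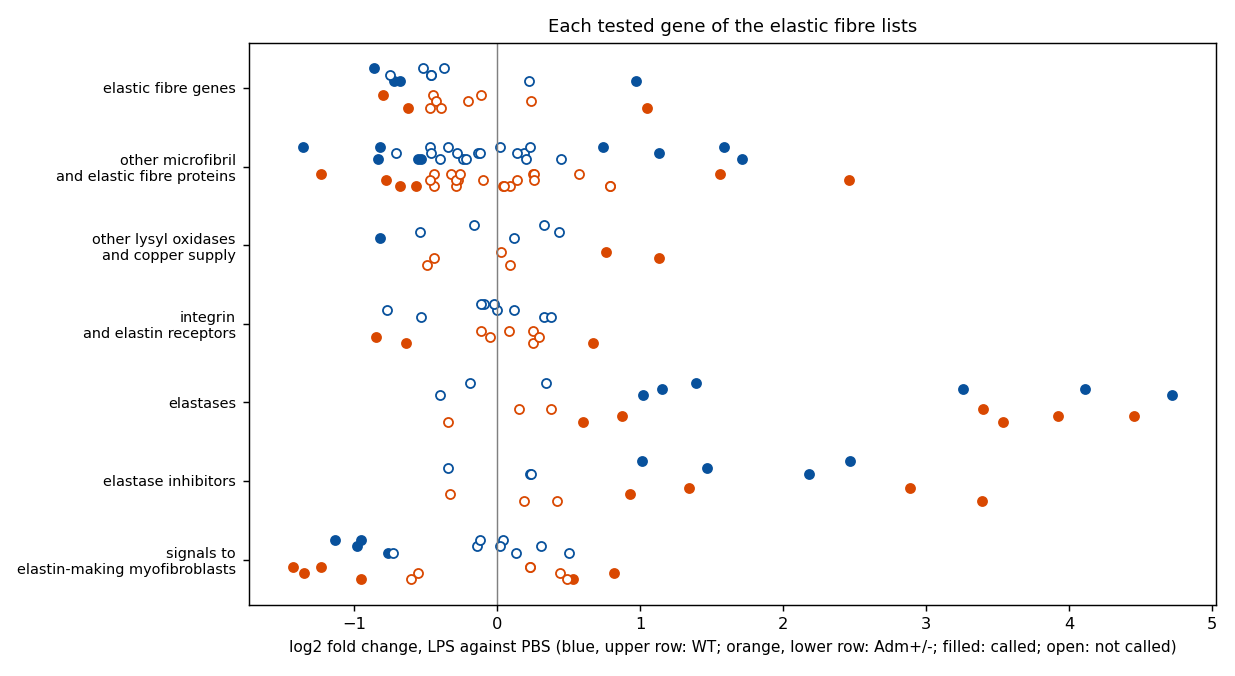
Fitted log2 fold change of LPS against PBS (x axis) of every tested gene of the elastic fibre lists (y axis), WT in blue in the upper row of each list and Adm+/- in orange in the lower. Filled points were called and open points were not. The 10 elastic fibre genes lie mostly below 0 apart from *Lox*, while 6 of 9 elastases and 4 of 7 inhibitors are filled points above 0 in each genotype.

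Markers of the cells that can make elastic fibres are given as counts, to be read against the shares of all genes called higher, 10.5% in WT and 12.8% in Adm+/- mice, and lower, 7.09% and 12.2%. Of 11 alveolar myofibroblast markers 2 were called lower in WT and 3 in Adm+/- mice and 0 higher, and *Fgf18* and *Wnt5a*, also counted among the signals above, made up both WT calls and 2 of the 3 in Adm+/- mice. The summed level of the 11 markers ran from 2574 to 2840.3 CPM in WT PBS, 2076 to 2569 in WT LPS, 2593 to 2719 in Adm+/- PBS and 2142 to 2468 in Adm+/- LPS. Of 11 alveolar (lipo)fibroblast markers 2 were called higher and 2 lower in WT and 1 higher and 6 lower in Adm+/- mice, with sums of 10714 to 11113, 7481 to 9113, 10591 to 11729 and 7687 to 8274 CPM in the same order. *Macf1* made up 72.2% of that sum, and without it the sums were 2908 to 3080.4, 2285 to 2627, 2763 to 3025 and 2234 to 2506 CPM. The 8 fibroblast collagens, made by many of the same cells, had negative values for 8 of 8 in WT (median −0.67) and 6 of 8 in Adm+/- mice (median −0.32), beside medians of −0.49 and −0.41 for the 10 elastic fibre genes. Of these collagens 1 was called lower in WT and 0 in Adm+/- mice, and their sum reached 50058 CPM in WT PBS from a lowest value there of 18344. Of 10 adventitial fibroblast markers 5 were called higher and 1 lower in WT mice and 2 higher in Adm+/- mice. Of 8 smooth muscle markers 1 was called lower in WT and 2 in Adm+/- mice, and of 7 pericyte markers 2 were called lower in WT and 0 in Adm+/- mice, with 0 of either list higher. All 8 neutrophil markers were called higher in both genotypes, their sum rising from at most 179.7 CPM in PBS to at least 1571 CPM in LPS libraries, and so were 5 of 6 leukocyte markers. Skeletal muscle markers were called higher for 9 of 9 in WT and 1 of 9 in Adm+/- mice. They summed to between 499 and 1426 CPM in WT LPS and to at most 49.2 CPM in the other 9 libraries. After LPS 9 of 9 were called lower in Adm+/- than in WT mice, beside 2.05% of all genes called. For the difference in LPS response 5 of 9 were called lower, beside 0.145%. Between genotypes after LPS, all 8 smooth muscle, 8 neutrophil and 6 leukocyte markers had negative values, beside 50.8% of all genes. Their medians were −0.64, −0.24 and −0.22, and 0 were called. Of 8 endothelial markers 2 were called lower in WT and 3 in Adm+/- mice, 2 of 7 mesothelial markers were called higher in each genotype, and 0 of 8 epithelial and 0 of 6 tested chondrocyte markers were called in either. The part of these cells in the values of the 10 genes was not tested.

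Over the 12 libraries the protein-coding genes most like *Eln* by Pearson's r of log2 CPM were *Eml2* (0.939), *Gm10382* (0.929), *Ccdc9* (0.927), *Usp35* (0.925) and *Tbc1d17* (0.923). Those most like the mean of the 10 standardized genes were *Man1b1* (0.988), *Mdga1* (0.983), *Ptprs*, *Snn* and *Itpkb* (each 0.982). These values are descriptions, the libraries share treatment groups and the deviating PBS libraries, and the transcripts named had a GC content of 51.5% to 61.3%.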

How the data were processed

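Per the labels and the study's methods, lung RNA was depleted of ribosomal RNA, made into libraries with a directional kit and aligned with HISAT2 to mm10 and counted on Gencode genes with featureCounts. The submitters' processing notes also name Trim Galore. The authors deposited raw counts for 52550 genes in 12 libraries, without normalization or a filter. The release of Gencode and the strand setting are not given in the sources used here, so reads of genes that overlap on opposite strands (*Eln*, *Fbn1*, *Fbn2*, *Efemp2*, *Lox* and *Mfap4* each have 1 such partner) may not have been separated.

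Counts of 21950 protein-coding genes were filtered with filterByExpr over the 4 groups, which left 15885, scaled by TMM, and tested with glmQLFit and glmQLFTest of edgeR 4.0.16 (R 4.3.3) in 1 fit of 12 libraries with 8 residual degrees of freedom, 5 contrasts and Benjamini-Hochberg adjustment. Standard errors are |log2 fold change| divided by the root of F, and 95% intervals use the moderated degrees of freedom (11.5). P-values weigh a group difference against the spread between libraries of a group, 1 per mouse. That spread holds differences between mice, library preparation and, in counts without molecular identifiers, counting error. Positions, exon lengths and GC content are from Gencode M21 (99.7% of genes matched), promoter windows from RefSeq (4 of 10 genes matched). Replicates of a group, 12 pairs in all, differed beyond counting noise, with chi-square over degrees of freedom from 9.92 to 112. Alternatives were RLE and upper-quartile scaling, DESeq2 1.42.0, limma-voom (limma 3.58.1), other gene filters, a test against a log2 fold change of 0.5 (glmTreat), fits of 6 libraries, libraries left out, and GC offsets (lowess span 0.3, added after seeing the data). The code was tested on simulated counts. Genes named are the 10, a set of their relatives and elastases, and list members called in both genotypes. The 5 genes most like *Eln* or the mean are also named. Outside that rule, *Mmp2*, *Mmp14*, *Ctsl*, *Timp2*, *Tgfb1*, *Tgfbr2*, *Macf1*, *Sftpc* and *Gm26917* were named after their values were seen. The 10 genes and the lists were chosen with earlier results of these data known.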

Additional observations from a re-analysis of the deposited data

How the results depend on the processing

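The 4 WT calls became 0 in a test against a log2 fold change of 0.5, where 1001 genes were called in all against 2791 before. They also became 0 when only the 6 WT libraries were fitted, where 1152 genes were called in all. In that fit edgeR gave an adjusted p of 0.0501 for *Efemp2* and 0.0583 for *Lox*. The 3 Adm+/- calls became 1, *Lox*, in the test against 0.5, where 1695 genes were called in all against 3968 before. In the fit of the 6 Adm+/- libraries the same 3 genes were called, and 4527 genes in all. When 1 library was left out, the lowest WT count was 2, *Efemp2* and *Lox*, without WT LPS replicate 9 (1443 genes in all). The highest was 7, without WT PBS replicate 3 (3074 genes in all). The Adm+/- count was lowest at 2, without Adm+/- LPS replicate 1 or 12 (3075 and 3033 genes in all). It was highest at 4, without Adm+/- PBS replicate 7 (3504 genes in all). Under all other alternatives the WT count was 3 to 6 and the Adm+/- count 3 or 4, and the counts for the genotype contrasts and their difference stayed at 0 in every fit.

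Signs turned only in values that were not called. *Eln* in WT mice was 0.10 without both PBS libraries that stood apart, and −0.69 to 0.10 with 1 library left out. Between genotypes after PBS, *Fbn2* was 0 with limma-voom, 0.11 without both libraries and 0.03 with GC offsets, *Loxl1* 0.04 and 0.01 in the latter fits, and *Efemp2* 0.05 with GC offsets. With 1 library left out, the PBS values ran from −0.77 to 0.02 for *Eln*, −0.16 to 0.02 for *Fbn1*, −0.13 to 0.20 for *Fbn2*, −0.03 to 0.15 for *Fbln5*, −0.12 to 0.10 for *Efemp2*, −0.37 to 0.08 for *Lox*, −0.33 to 0.24 for *Loxl1*, −0.06 to 0.25 for *Mfap5* and −0.45 to 0.17 for *Emilin1*. The LPS values ran from −0.02 to 0.35 for *Eln*, 0 to 0.25 for *Fbln5* and −0.17 to 0.03 for *Lox*. The differences in response ran from −0.07 to 0.18 for *Fbln5*, −0.14 to 0.31 for *Lox* and −0.04 to 0.52 for *Loxl1*. The cause was not tested. No paired analysis was possible because the replicate numbers are library numbers that no groups share.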
